A study of Mus musculus with 4 samples.

Results

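Embryoid bodies (EBs) are floating aggregates in which embryonic stem (ES) cells leave pluripotency and begin to form the germ layers. The values described here are those of wild type EBs harvested at day 4 and at day 8, which are 2 of the 4 arrays of the series. The other 2 arrays hold EBs of the same days made from *Mst1/Mst2* knockout ES cells (*Mst-/-*), which lack the Hippo pathway kinases Mst1 and Mst2, and they are used only for values set side by side. On both days EBs had been made in the same way, from single ES cells put into non-adherent dishes in ES cell medium from which LIF and the 2 inhibitors of 2i (CHIR99021 and PD0325901) had been left out. The name and strain of the wild type line, whether an array held 1 dish or a pool, and which knockout line was used are not given in the sources used here. One label of the day 8 *Mst-/-* array calls it day 4, and its title and cell type, which say day 8, were followed.

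Signals of total RNA came from exon arrays of the mouse (Affymetrix 1.0 ST), on which each probe set lies on a stretch of an exon. The signal of a gene is the median log2 signal over its probe sets, with a median of 11 probe sets for each of 16358 genes. Differences are day 8 minus day 4 on the log2 scale, so that 1 unit is a doubling. Genes below background on both days were left out, and 12084 genes were compared. The background was taken from 1015 receptor genes of smell (olfactory and vomeronasal), whose 95th percentile was 7.03 on both arrays. With 1 array for each day there is no spread between replicates and no test or p-value is given. The error beside a difference is an SD between probe sets of 1 gene, and thus a technical spread that says nothing of other cultures. Genes were counted at the 1.5-fold threshold of the study's methods. Of all 1015 receptor genes 12.1% passed it, so that it says little about dim genes. Most of them, 954, were below background on both days and not compared. Of the 61 that were compared, 2 were higher and 2 lower past 1.5-fold. Where a gene was below background on 1 array, its change is written as "at least", with that array at its background.

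During gastrulation the epiblast, which is still pluripotent, forms the primitive streak under Nodal, Wnt and BMP signals, and cells leave the streak as mesoderm and definitive endoderm. Mesoderm then gives rise to blood, endothelium, heart muscle and mesenchyme, while the yolk sac forms from extraembryonic mesoderm and visceral endoderm. EBs are known to pass through these steps in culture without the body axis of an embryo. In RNA of whole EBs, more cells of a type and more RNA in each such cell cannot be told apart.

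Of the 12084 genes compared, 2016 were over 1.5-fold higher at day 8 (16.7%) and 1531 were over 1.5-fold lower (12.7%). The other 8537 lay within 1.5-fold (70.6%). The balance of the directions rested on the scaling of the arrays. With both arrays centred on their median over all genes, 1579 genes were higher and 2315 lower, since that median was 0.15 higher at day 8. The large differences lay mainly on the higher side, with 108 genes at least 8-fold higher and 16 at least 8-fold lower. With values below background raised to it, these numbers were 67 and 13. Of the 189 genes named in the text that were past 1.5-fold, 37 lay within it when read from their brightest probe set alone, 9 with the mean over probe sets and 6 with centred arrays.

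**Figure D1:**
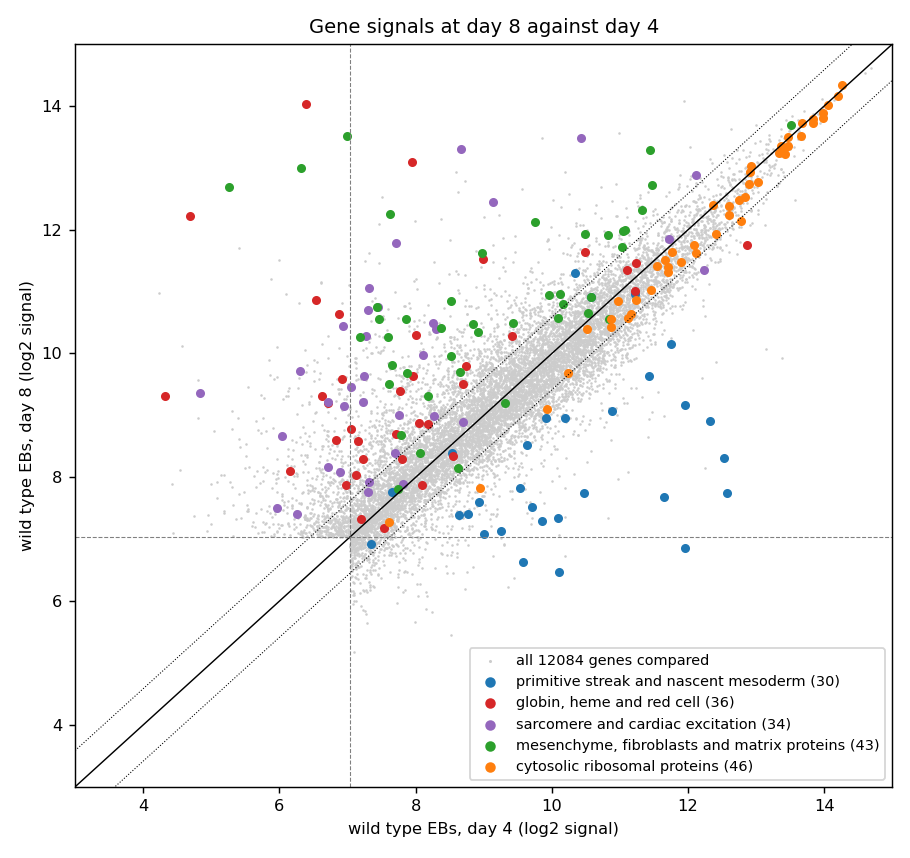
Log2 signals of the 12084 genes compared in wild type EBs, day 4 on the x axis and day 8 on the y axis, with 5 gene lists in colour. The solid line marks equal signals, dotted lines 1.5-fold and dashed lines the background of 7.03. Of the streak genes 24 of 30 lie below the lower dotted line, of the mesenchyme genes 34 of 43 lie above the upper one, and of the ribosomal protein genes 43 of 46 lie between them.

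The 25 genes with the largest higher differences, among those with at least 3 probe sets of which 75% shared the direction, had measured values from 4.31 to 7.64, and the smallest was 2.28 with signals below background at their bound. The embryonic globin gene *Hbb-y* stood first, 18 of the 25 were below background at day 4, and 20 belonged to one of the gene lists. The 25 genes with the largest lower differences had measured values from -5.10 to -2.54, or from -4.92 to -2.33 at their bound, and *Lhx1*, a LIM homeobox gene of the node and mesendoderm, stood first. Of these, 5 were below background at day 8 and 19 belonged to a list. The counts of single lists below can be read against 16.7% higher, 12.7% lower and 70.6% within 1.5-fold over all genes. Lists were not chosen independently of these arrays. A member above background only at day 8 had to be higher, and a member above it only at day 4 had to be lower. The number of such members is given beside the lists described by direction that hold several.

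The promoters of 5 genes that were among the higher members of the red cell and sarcomere lists are shown first. These 5 are not the members with the largest differences, since *Hbb-bh1*, *Myl4* and *Tnnt2* are left out. Each holds all the motifs marked for its list, which most promoters of that list did not, as counted below. The 5 thus do not stand for their lists. Each stretch is the 250 bases before the transcription start, 5′ to 3′ on the gene's own strand, from RefSeq annotation of GRCm38.p6. *Hbb-y* and *Hba-x* encode the embryonic beta-like and alpha-like globins, and *Alas2* the erythroid enzyme that starts heme synthesis. In these 3, capitals mark the GATA motifs, which are the letters AGATAA, the letters AGATAG, the letters TGATAA and the letters TGATAG, which GATA factors are known to bind, and CCACCC, which Krüppel-like factors are known to bind, on either strand. *Myl7* encodes an atrial myosin light chain and *Actc1* cardiac alpha-actin, and there capitals mark the CArG box, which serum response factor is known to bind.
Hbb-y: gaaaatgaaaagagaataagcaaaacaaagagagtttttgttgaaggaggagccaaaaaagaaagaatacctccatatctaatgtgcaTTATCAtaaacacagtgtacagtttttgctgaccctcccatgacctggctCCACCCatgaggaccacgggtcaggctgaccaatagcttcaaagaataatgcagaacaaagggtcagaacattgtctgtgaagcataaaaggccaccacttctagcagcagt
Hba-x: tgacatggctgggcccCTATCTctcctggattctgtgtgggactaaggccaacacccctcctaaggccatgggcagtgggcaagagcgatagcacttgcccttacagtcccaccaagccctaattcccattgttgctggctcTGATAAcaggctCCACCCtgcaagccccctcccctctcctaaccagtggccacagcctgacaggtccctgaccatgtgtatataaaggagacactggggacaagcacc
Alas2: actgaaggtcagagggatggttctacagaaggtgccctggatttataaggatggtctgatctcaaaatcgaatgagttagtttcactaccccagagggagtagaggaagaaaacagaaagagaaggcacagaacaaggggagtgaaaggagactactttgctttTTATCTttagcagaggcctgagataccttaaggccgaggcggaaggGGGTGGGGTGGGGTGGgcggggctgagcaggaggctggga
Myl7: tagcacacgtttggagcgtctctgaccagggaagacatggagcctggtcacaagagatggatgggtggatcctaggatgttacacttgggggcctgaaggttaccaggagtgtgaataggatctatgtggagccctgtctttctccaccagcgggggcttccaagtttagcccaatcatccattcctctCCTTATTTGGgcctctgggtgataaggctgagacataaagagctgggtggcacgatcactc
Actc1: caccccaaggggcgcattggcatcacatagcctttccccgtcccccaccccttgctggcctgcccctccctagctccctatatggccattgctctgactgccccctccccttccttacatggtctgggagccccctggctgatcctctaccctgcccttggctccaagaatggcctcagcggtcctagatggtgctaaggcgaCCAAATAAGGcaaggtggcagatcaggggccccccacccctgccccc

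These stretches lie at chr7:103853208-103853457 (minus strand) for *Hbb-y*, chr11:32276350-32276599 (plus strand) for *Hba-x*, chrX:150547167-150547416 (plus strand) for *Alas2*, chr11:5898783-5899032 (minus strand) for *Myl7* and chr2:114052876-114053125 (minus strand) for *Actc1*. Over the same 250 bases, one of the 4 GATA motifs was found in 26.5% of all 32851 promoters of the table, CCACCC in 28.1%, both in 5.8% and a CArG box in 1.47%. Among the red cell genes compared, 26 of 36 had a promoter in the table, and 9 of their 30 promoters held both a GATA motif and CCACCC. Among the sarcomere genes compared, 31 of 34 had one, and 7 of their 42 promoters held a CArG box. The other pairings were above the share of all promoters as well, with a GATA motif in 42.9% and CCACCC in 45.2% of the sarcomere promoters and a CArG box in 6.67% of the red cell promoters. The letters are a description of these windows and do not show that a factor was bound.

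Pluripotency genes did not share a direction. Of 31 naive pluripotency genes compared, 11 were over 1.5-fold lower at day 8, 8 were over 1.5-fold higher and 12 lay within 1.5-fold. Their median difference was -0.14. The core factor *Pou5f1* had a signal of 11.47 at day 4 and 9.06 at day 8, a difference of -2.41 ± 0.36 (SD over 7 probe sets), and each of its 7 probe sets was lower at day 8. *Tdgf1*, which encodes the Nodal coreceptor Cripto, went from 13.14 to 10.08, 8.34-fold lower. *Sall4*, a zinc finger partner of *Pou5f1*, went from 12.24 to 10.61, and *Nanog* from 11.38 to 10.36, a difference of -1.02 ± 0.54 (10 probe sets). All 4 were thus well above background on both days. *Zfp42*, a gene of naive ES cells, was 2.07-fold lower. It lay within 1.5-fold with the mean over probe sets (-0.52) and at its brightest probe set (-0.08). *Sox2*, which neural progenitors also use, was 1.57-fold higher, from 10.18 to 10.83, and within 1.5-fold with centred arrays, at 0.51. Several genes listed for naive ES cells were also higher. They were *Tfcp2l1*, a transcription factor that distal tubule cells also use, at 3.12-fold, the nuclear receptor gene *Nr5a2* at 2.73-fold, *Tet2*, which encodes a DNA demethylation enzyme, at 3.34-fold, and *Stat3*, which encodes the effector of LIF, at 1.93-fold. At their brightest probe sets *Tfcp2l1* gave 0.15 and *Nr5a2* 0.05. *Pecam1*, which ES cells share with endothelium, was the member with the largest higher difference, at 5.96-fold. *Esrrb* and *Klf4* lay within 1.5-fold, with 0.42 and 0.37.

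Genes of the primed epiblast, the state that follows naive pluripotency, were mostly lower. Of 22 compared, 13 were over 1.5-fold lower, 1 was over 1.5-fold higher and 8 lay within 1.5-fold. Their median difference was -0.94. *Fgf5*, the ligand that marks the postimplantation epiblast, had a signal of 10.83 at day 4 and 7.35 at day 8, 11.2-fold lower and near background at day 8. *Zic2*, a zinc finger factor, was 6.77-fold lower, and *Otx2*, a homeobox gene of epiblast and forebrain, 4.06-fold lower. The de novo DNA methyltransferases parted. *Dnmt3b*, the form of the epiblast, went from 11.65 to 8.98, a difference of -2.67 ± 0.35 (26 probe sets). *Dnmt3a*, the form of most later tissues, went from 9.90 to 10.57, 1.59-fold higher, a call that centring the arrays ended at 0.52.

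Germline genes were largely silent on these arrays, with 17 of 23 below background on both days. Of the 6 compared, *Sycp3*, which encodes a protein of the meiotic chromosome axis, was 3.10-fold lower, and *Kit*, the stem cell factor receptor of blood and germ cells, was 1.54-fold higher, or 0.48 on the log2 scale and within 1.5-fold with centred arrays.

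Primitive streak genes made up the clearest group on the lower side. Of 30 compared, 24 were over 1.5-fold lower at day 8, 5 lay within 1.5-fold and 1 was over 1.5-fold higher, with a median difference of -1.80. Among the 30, 4 were above background only at day 4 and so could only be lower. With these at their bound the median was also -1.80. *T*, which encodes Brachyury, the T-box factor of streak and axial mesoderm, had a signal of 12.52 at day 4 and 8.31 at day 8. All of its 11 probe sets lay lower, with differences from -6.48 to -1.40. *Mixl1*, a homeobox gene of streak and mesendoderm, went from 12.57 to 7.74, 28.4-fold lower. The T-box gene *Eomes*, which acts in mesendoderm, went from 12.32 to 8.91, although its brightest probe set gave -0.43. *Mesp1*, which marks the first cardiac mesoderm, went from 10.10 to below background, at least 8.40-fold lower. *Lhx1* also ended below background, from 11.95, at least 30.3-fold lower. Both *T* and *Eomes* still lay above background at day 8, and so did *Mixl1*. The organizer gene *Gsc*, which encodes a homeobox factor, was 4.56-fold lower. *Foxh1*, which encodes the forkhead partner of Smad2 in Nodal signalling, was 6.84-fold lower, with 11.95 at day 4 and 9.18 at day 8. *Snai1*, the repressor that drives cells through the streak, was 3.51-fold lower.

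The member that went the other way was *Hand1*, a factor of extraembryonic and lateral mesoderm, from 10.34 to 11.30. Those within 1.5-fold included *Pdgfra*, the receptor of paraxial and cardiac mesoderm, with 0.35, and *Kdr*, the VEGF receptor of blood and vessel progenitors, with -0.26. In *Mst-/-* EBs the median over the 30 genes was -0.44, with 13 over 1.5-fold lower and 6 over 1.5-fold higher. The difference between the genotypes was not tested.

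**Figure D2:**
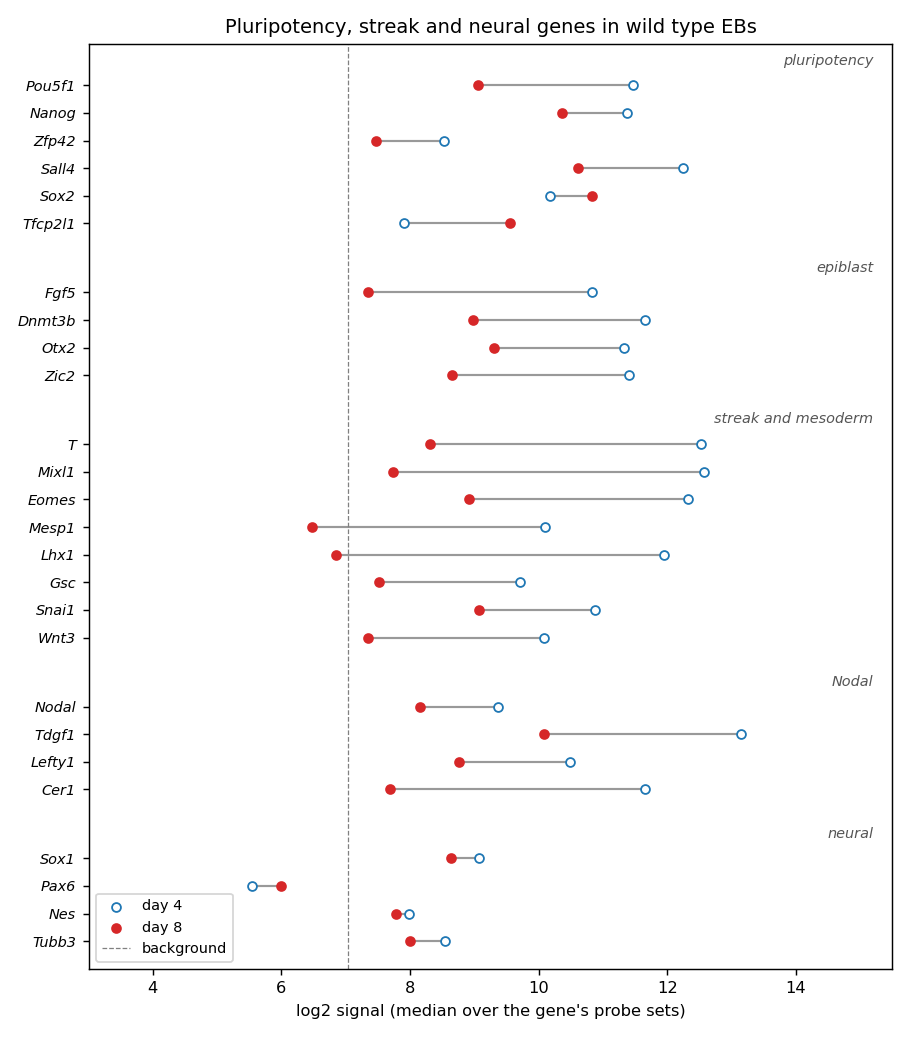
Log2 signal of pluripotency, epiblast, streak, Nodal and neural genes in wild type EBs, 1 row for each gene, with open circles for day 4, filled circles for day 8 and a dashed line at background. Each circle is the median over the gene's probe sets on 1 array. *T*, *Mixl1*, *Eomes* and *Lhx1* start near 12 and end more than 3 units lower, *Sox2* and *Tfcp2l1* move up, and *Pax6* lies below background on both days.

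Nodal pathway genes that act at the streak were lower as well. All 7 of the Nodal ligands, coreceptors and antagonists compared were over 1.5-fold lower, with a median of -1.86. *Nodal* itself went from 9.36 to 8.15, with -0.16 at its brightest probe set, and its feedback inhibitor gene *Lefty1* from 10.49 to 8.76. *Cer1*, which encodes a secreted antagonist of Nodal, BMP and Wnt made by anterior endoderm, went from 11.65 to 7.68, a difference of -3.97 ± 0.44 (4 probe sets). Of 6 Activin receptor and Smad genes, 4 lay within 1.5-fold, and the receptor gene *Acvr2b* was 1.69-fold lower. *Smad2* lay within 1.5-fold with 0.14 ± 0.13 (14 probe sets), and *Smad3* was 2.22-fold higher.

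Of 28 BMP genes compared, 12 were over 1.5-fold higher and 5 lower, with a median of 0.28. Among the ligands, 4 of 6 were over 1.5-fold higher and none was lower past that threshold. *Bmp4*, a ligand of posterior and extraembryonic mesoderm, went from 9.97 to 11.14. *Bmp10*, a ligand known from the trabeculated heart, was below background at day 4 and at least 2.89-fold higher. *Acvrl1*, the endothelial receptor of BMP9 and BMP10, went from 7.59 to 9.84, with a difference of 0.08 at its brightest probe set. The BMP target genes ran both ways, with *Id2*, an inhibitor of bHLH factors, 3.92-fold higher and the homeobox gene *Msx1* 2.66-fold lower.

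Of 14 Wnt ligand genes compared, 4 were over 1.5-fold lower and 2 higher. *Wnt3*, the ligand that the mouse streak requires, went from 10.09 to 7.34, a difference of -2.74 ± 0.97 (6 probe sets). *Wnt2*, a ligand of early heart and lung mesoderm, went the other way, from 8.50 to 10.61. Wnt receptors, inhibitors and feedback targets ran both ways, with 11 of 35 over 1.5-fold lower, 9 higher and a median of -0.17. The targets *Axin2*, *Sp5* and *Lgr5* were 2.17-fold, 3.23-fold and 2.75-fold lower, while the Wnt receptor gene *Fzd4* of endothelium was 5.86-fold higher. The secreted inhibitors parted too, *Dkk1* being 2.83-fold lower and *Dkk2* at least 5.53-fold higher.

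Of 23 FGF genes compared, 9 were over 1.5-fold lower and 2 higher. Both of the higher genes were receptors. *Fgfr2*, the receptor used by many epithelia, went from 8.78 to 10.77, and *Fgfr3*, a relative, was 1.99-fold higher. *Fgfr1*, the receptor of early mesoderm, had a difference of -0.01 ± 0.14 (24 probe sets). The targets *Spry4* and *Etv4*, which are read as a sign of FGF signalling, were 2.22-fold and 2.07-fold lower. In the Notch pathway, *Dll3* and *Lfng*, which act in the presomitic mesoderm, were 6.59-fold and 3.81-fold lower, and *Hey2*, a target used in heart and artery, was 2.53-fold higher.

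Hox genes, which give cells their place along the body axis, were higher at day 8 where they differed, with 1 exception. Of 33 with a value, 5 were below background on both days. Of the 28 compared, 14 were over 1.5-fold higher, 1 was over 1.5-fold lower and 13 lay within 1.5-fold. The median difference was 0.60, and 0.34 with values below background at their bound, since 13 of the 28 were above background only at day 8. All 6 Hoxc genes compared were among these 13, against 2 of 8 Hoxb genes, so the counts of clusters and of paralogue groups are not set against each other. *Hoxc8*, a thoracic gene, went from below background to 9.43, at least 5.27-fold higher, and *Hoxc6* was at least 4.37-fold higher. *Hoxb1*, the gene at the 3′ end of its cluster that is switched on in the streak, went from 10.39 to 8.69, 3.25-fold lower. The SD over probe sets was above 1 for several of them, and for *Hoxd11* it was 2.01 at a difference of 0.44, so that its probe sets did not agree. *Meis1*, which encodes a homeobox cofactor of Hox proteins, went from 7.34 to 10.53, 9.13-fold higher.

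**Figure D3:**
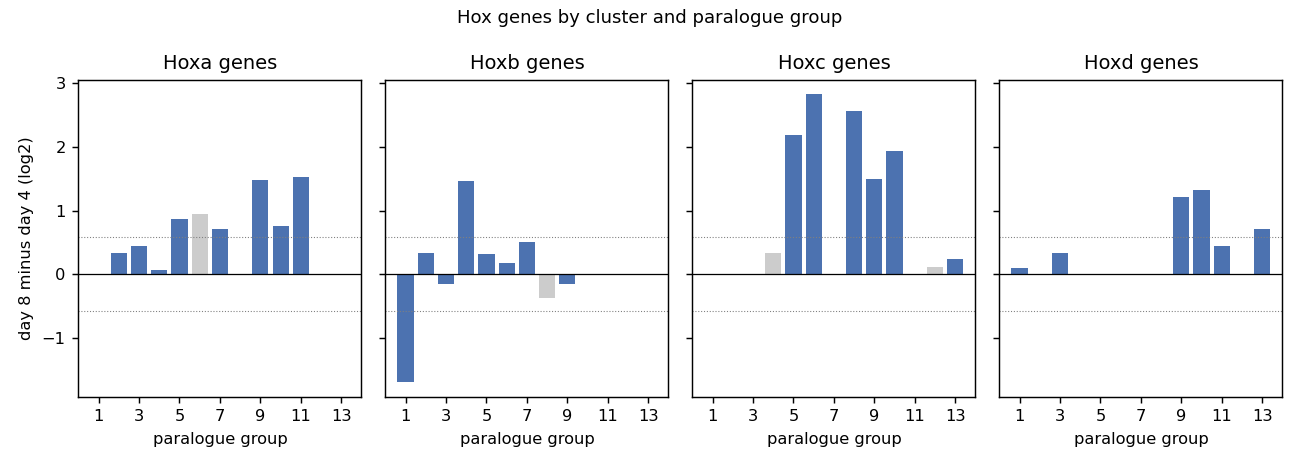
Difference between day 8 and day 4 of each Hox gene in wild type EBs (log2, y axis) by paralogue group (x axis), 1 panel for each cluster. Blue bars are genes above background on at least 1 day, grey bars those below it on both, and dotted lines mark 1.5-fold. *Hoxb1* is the bar below the lower dotted line, and the tallest bars are those of *Hoxc6* and *Hoxc8*.

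Genes that handle retinoic acid, a signal that is known to induce Hox genes, ran both ways. *Cyp26a1*, which encodes the enzyme that clears retinoic acid in the streak and tail bud, went from 12.26 to 8.14, 17.3-fold lower. *Rarb*, a receptor gene that retinoic acid is known to induce, went from 7.36 to 10.85, 11.2-fold higher. *Rbp4*, the retinol carrier of plasma and yolk sac, was 20.3-fold higher. The synthesis gene *Aldh1a2* lay within 1.5-fold with 0.07.

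Endoderm genes fell into separate groups. Of 43 visceral and extraembryonic endoderm genes compared, 33 were over 1.5-fold higher and 3 over 1.5-fold lower. The median was 1.00, and it was 0.91 when the 9 genes above background only at day 8 were taken at their bound. The 8 plasma proteins compared were over 1.5-fold higher, of which 5 were above background only at day 8 and so could only be higher. *Afp*, which encodes the fetal plasma protein of yolk sac endoderm, was below background at day 4, with 5.88, and at 11.20 at day 8, at least 18.0-fold higher. *Ttr*, which encodes transthyretin, went from 7.51 to 12.53, 32.4-fold higher. The apolipoprotein gene *Apoa1* was at least 16.9-fold higher, with 0.31 at its brightest probe set, and *Apoe* 1.77-fold higher from 12.04. *Fga*, a chain of fibrinogen, was below background on both days, while *Fgb*, another chain, was at least 2.39-fold higher.

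The basement membrane genes were higher by smaller amounts, all 9 of them past 1.5-fold with a median of 1.10. The laminin chains *Lama1*, *Lamb1* and *Lamc1* were 1.85-fold, 1.64-fold and 2.73-fold higher, and *Sparc*, a matrix protein of parietal endoderm and mesenchyme, 3.58-fold, while *Lamb1* fell within 1.5-fold with centred arrays, at 0.56. Among the regulators, *Gata6*, a GATA factor of primitive endoderm and heart, was 2.14-fold higher and its relative *Gata4* lay within 1.5-fold at -0.10. The 3 lower genes were *Foxa2*, a forkhead factor of endoderm and node, *Sox17*, a factor of endoderm and hemogenic endothelium, and *Dkk1*.

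Definitive endoderm genes ran both ways, with 8 of 23 over 1.5-fold lower and 6 higher. *Trh*, which encodes thyrotropin-releasing hormone, went from 13.38 to 9.93, and *Cxcr4*, the chemokine receptor of nascent endoderm and mesoderm, was 7.14-fold lower. *Nepn*, which encodes the proteoglycan nephrocan known from midgut endoderm, went from below background to 11.71, at least 25.6-fold higher. The median was -0.10 in wild type EBs and 1.06 in *Mst-/-* EBs, where 17 of 23 genes were over 1.5-fold higher, and the difference was not tested.

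Most neural genes lay within 1.5-fold. Of 33 neurectoderm genes compared, 24 lay within 1.5-fold, 5 were lower and 4 higher, and *Pax6*, an eye and forebrain factor, was below background on both days. *Sox1*, the early neural factor, had 9.06 and 8.64, and *Nes*, which encodes the intermediate filament nestin, 7.98 and 7.78. Neuronal genes were more often lower, with 8 of 24 past 1.5-fold and 4 higher. Of the 24, however, 4 were above background only at day 4 and so could only be lower. *Stmn2*, which encodes a microtubule regulator of growth cones, went from 12.21 to 9.60, 6.11-fold lower, and *Ina*, a neurofilament gene, was 4.47-fold lower. *Ncam1*, an adhesion molecule that heart and mesenchyme also make, was 2.86-fold higher.

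Of 27 surface ectoderm genes compared, 20 lay within 1.5-fold, with 14.8% higher and 11.1% lower, near the shares over all genes. The keratin gene *Krt8* had 12.86 and 12.94. *Dsc2*, a desmosomal cadherin gene also used in heart muscle, was 5.03-fold higher. Of 16 trophoblast genes with a value, 7 were below background on both days, among them *Elf5* and *Tpbpa*, and *Plac1*, an X-linked gene of trophoblast, was the largest of the 3 higher ones at 11.2-fold.

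**Figure D4:**
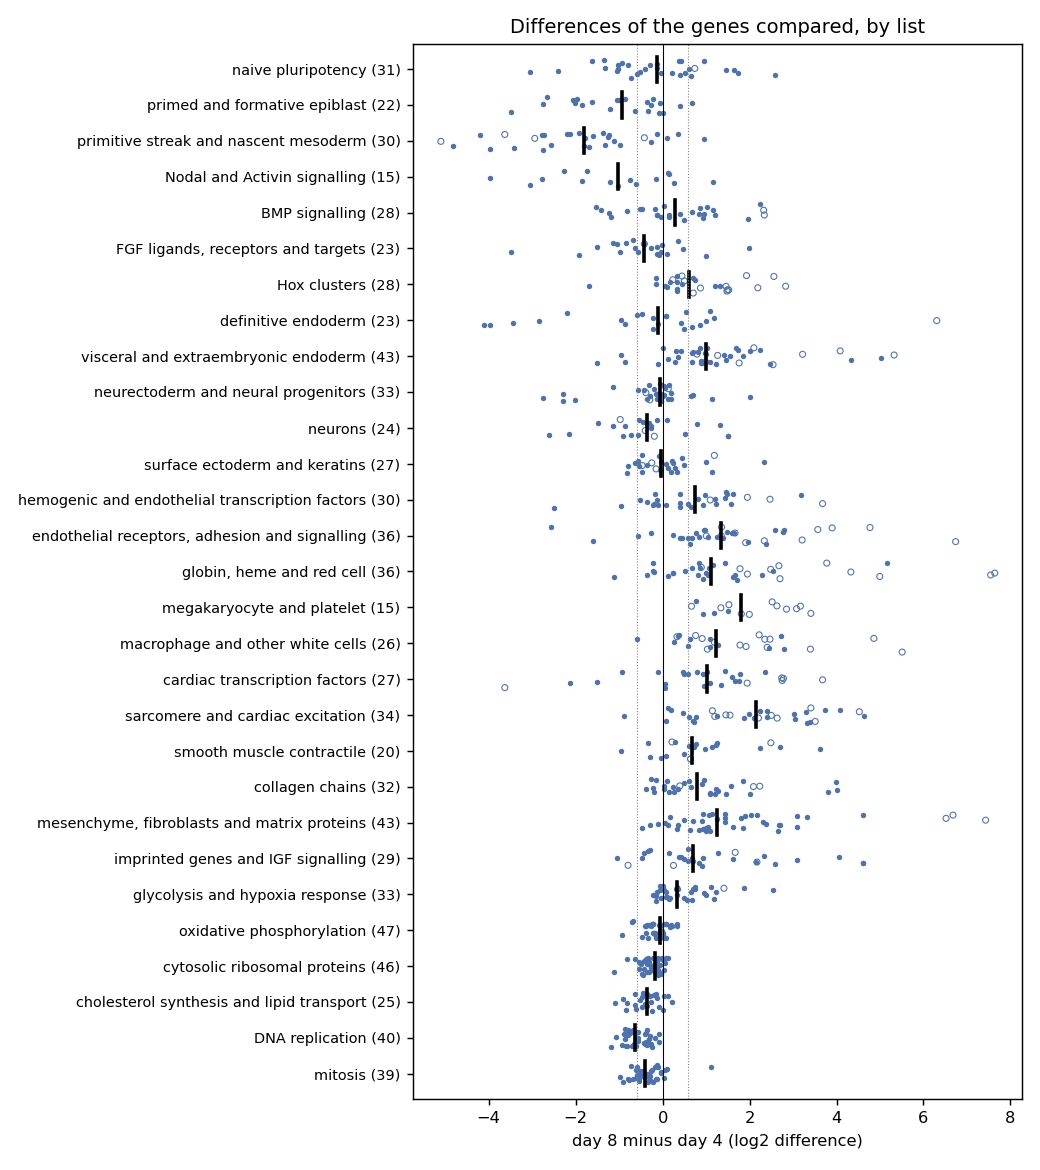
Difference between day 8 and day 4 of every gene compared in 29 gene lists (log2, x axis), with the number of genes in brackets. Filled points are genes above background on both days, open points those above it on 1 day, black bars medians and dotted lines 1.5-fold. The streak list has the lowest median, at -1.80, and the sarcomere list the highest, at 2.15.

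Blood genes of the red cell, platelet and macrophage lines were higher at day 8. Of 36 globin, heme and red cell genes compared, 27 were over 1.5-fold higher and 1 was lower, with a median of 1.12. Of these, 11 were above background only at day 8, and with them at their bound the median was 1.07. *Hbb-y* had 6.39 at day 4, below background, and 14.04 at day 8, which made it at least 128-fold higher. Its 4 probe sets differed by 4.33, 6.91, 7.58 and 9.72. The other embryonic beta-like globin gene, *Hbb-bh1*, was at least 36.6-fold higher, with probe sets that differed by between 2.56 and 9.96. *Hba-x*, above background on both days, went from 7.95 to 13.10, 35.5-fold higher. *Hbb-b1*, an adult beta globin gene that shares sequence with its neighbours, so that its probe sets may read them too, was at least 5.91-fold higher, from 6.92 to 9.60.

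The globin partners came with them in part. *Alas2*, whose promoter is shown above with a GATA motif, went from 6.54 to 10.87, at least 14.3-fold higher. Of the 7 heme synthesis genes, 5 were over 1.5-fold higher, and *Alad* and *Urod* lay within it at 0.23 and -0.20. *Slc25a37*, which encodes the mitochondrial iron carrier mitoferrin, was 5.78-fold higher. In the red cell membrane, 9 of 11 genes compared were over 1.5-fold higher, and 4 of the 11 were above background only at day 8. Among them, *Slc4a1*, the anion exchanger band 3, was at least 12.2-fold higher, and *Rhag*, the Rh-associated glycoprotein, at least 4.85-fold. The 1 lower gene was *Car2*, carbonic anhydrase, from 12.86 to 11.75, which many other cells use.

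All 15 megakaryocyte and platelet genes compared were past 1.5-fold on the higher side, of which 11 were above background only at day 8 and so could only be higher. Another 3 were below background on both days. The median was 1.81, and 1.32 with bounds. *Itga2b*, which encodes integrin alpha IIb of platelets and the first blood progenitors, was above background on both days, at 7.54 and 9.05. Its partner gene *Itgb3* was at least 6.26-fold higher, with 0.25 at its brightest probe set, and *Pf4*, a platelet chemokine gene, at least 6.85-fold.

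Of 26 macrophage and white cell genes compared, 21 were over 1.5-fold higher and 1 was lower, and 14 were above background only at day 8. The median of 1.24 was 0.86 with bounds. *Csf1r*, the receptor that macrophages depend on, had 6.30 at day 4 and 8.65 at day 8, at least 3.07-fold higher, with 0.13 at its brightest probe set. *Ccl3*, a macrophage chemokine gene, was at least 22.3-fold higher. *Tyrobp*, an adaptor of myeloid receptors, was 5.46-fold higher and above background on both days. *Ptprc*, which encodes CD45, and the complement gene *C1qa* stayed below background on both days, while *C1qb* went from 7.12 to 9.84. The T cell gene *Cd3e* was 1.51-fold lower, from 7.81 to 7.22, but at -0.10 with the mean over probe sets and -0.11 at its brightest probe set. In *Mst-/-* EBs, the medians of the red cell, platelet and macrophage lists were 0.12, 0.56 and 0.10, over 28, 8 and 14 genes compared, and none of these differences from wild type EBs was tested. The globin genes stood apart from that red cell median. In *Mst-/-* EBs 3 of 5 were compared, and all 3 were over 1.5-fold higher, with a measured median of 4.29. Those above background only at day 8 could only be higher, and their number was not counted in *Mst-/-* EBs.

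Of 30 transcription factors of hemogenic mesoderm compared, 16 were past 1.5-fold on the higher side and 2 on the lower side. The median was 0.74, and 0.61 with the 4 that were above background only at day 8 at their bound. *Etv2*, the ETS factor that acts for a short time in the common progenitors of blood and vessels, went from 11.43 to 8.94, and the differences of its 7 probe sets ran from -3.01 to -2.03. *Tal1*, *Lmo2*, *Gata2* and *Runx1*, factors of the first blood cells, lay within 1.5-fold with 0.40, -0.20, -0.18 and 0.40. *Gata1*, the factor of red cells and megakaryocytes, went from 7.16 to 8.59, and *Gfi1b* from 7.77 to 9.39. *Klf1*, the Krüppel-like factor of red cells, was at least 2.10-fold higher and *Spi1*, which encodes PU.1 of the myeloid line, at least 3.45-fold, although its brightest probe set gave -0.22. *Fli1* and *Erg*, ETS factors of endothelium, were 2.97-fold and 2.35-fold higher.

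Endothelial genes were mostly higher. Of 36 endothelial genes compared, 28 were over 1.5-fold higher and 2 lower. The median was 1.35, and it was 1.13 when the 11 genes above background only at day 8 were taken at their bound. *Cdh5*, which encodes VE-cadherin of endothelial junctions, went from 8.49 to 11.29, a difference of 2.79 ± 0.68 (12 probe sets). *Emcn*, which encodes the sialomucin endomucin, was at least 15.3-fold higher. *Tek*, the angiopoietin receptor Tie2, was at least 9.49-fold higher and *Tie1* 5.21-fold, although the brightest probe set of *Tie1* gave -0.03. The ligand gene *Angpt1* was at least 5.80-fold higher and *Angpt2* 1.97-fold. *Cd34*, a sialomucin of vessels and blood progenitors, was at least 13.8-fold higher. Of the VEGF receptors, *Kdr* had 11.22 and 10.96 and *Flt1* 10.39 and 9.82, both within 1.5-fold, while *Flt4*, the receptor of lymphatic vessels, was 1.54-fold higher, though within 1.5-fold with centred arrays at 0.47, and the ligand gene *Vegfa* 1.93-fold. The 2 lower genes were *Aplnr*, the apelin receptor of early mesoderm, at 3.01-fold, and its ligand gene *Apln* at 5.90-fold. *Lyve1* and *Stab2*, scavenger receptors of sinusoids and lymphatics, went from below background to 8.62 and 7.97.

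**Figure D5:**
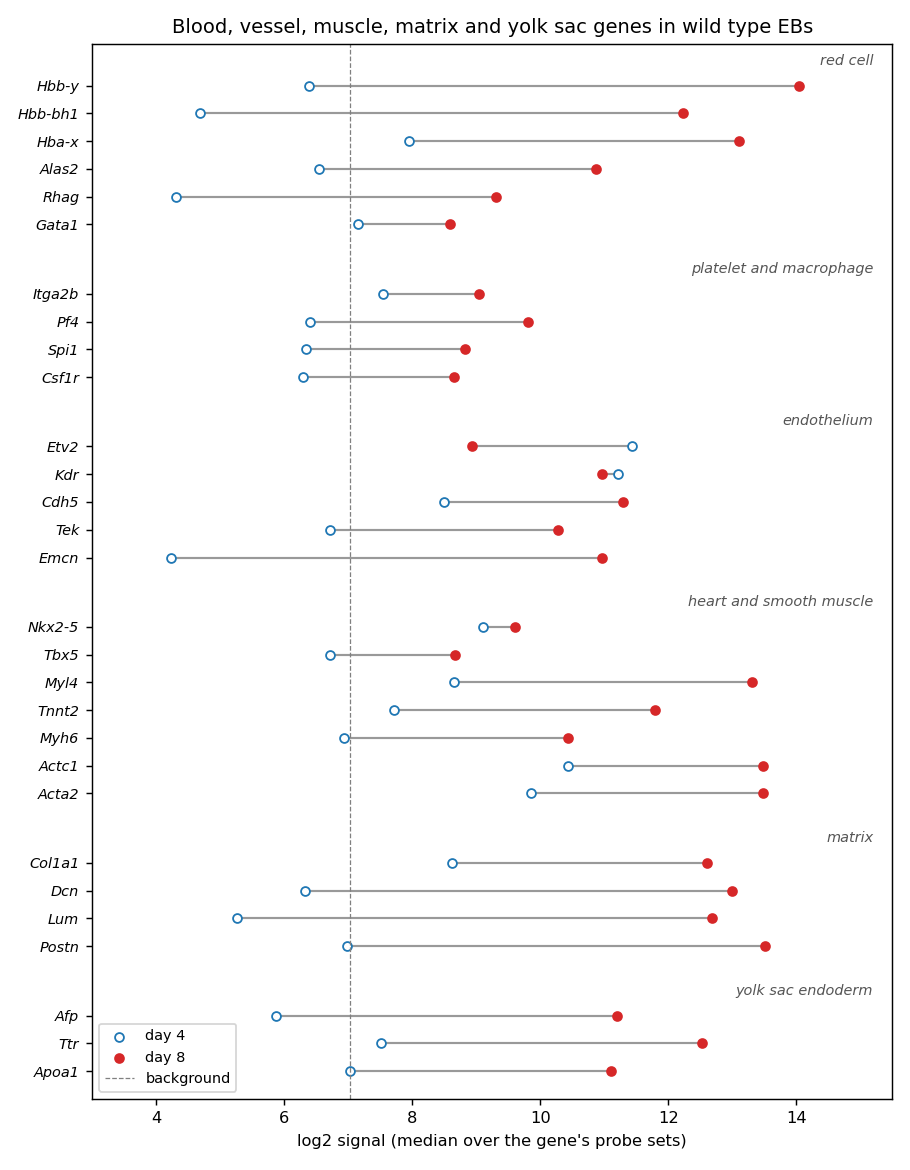
Log2 signal of blood, vessel, muscle, matrix and yolk sac genes in wild type EBs, 1 row for each gene, with open circles for day 4, filled circles for day 8 and a dashed line at background. Each circle is the median over the gene's probe sets on 1 array. *Hbb-y*, *Hbb-bh1*, *Lum*, *Emcn*, *Dcn* and *Postn* move furthest to the right in measured signal, *Kdr* and *Nkx2-5* hardly move, and *Etv2* moves left. Those that move furthest all start below background. At its bound *Emcn* differs by 3.94, less than *Hba-x* at 5.15.

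Most genes of the contractile machinery of the heart were higher. Of 34 sarcomere and cardiac excitation genes compared, 29 were over 1.5-fold higher, 4 lay within that range and 1 was lower. The median was 2.15, and it was 2.04 when the 10 genes above background only at day 8 were taken at their bound. Another 6 were below background on both days, among them *Casq2*, *Tcap* and *Sln*, genes of mature muscle. *Myl4*, the atrial and embryonic myosin light chain, went from 8.66 to 13.30, 24.9-fold higher. *Myl7*, whose promoter is shown above with its CArG box, went from 9.14 to 12.45, a difference of 3.31 ± 0.34 (7 probe sets). *Actc1*, the other gene shown with that motif, went from 10.43 to 13.48. *Tnnt2*, cardiac troponin T, was 16.8-fold higher, with 0.09 at its brightest probe set, and *Myh7*, a myosin heavy chain, 13.4-fold. *Myh6*, the alpha heavy chain, was at least 10.6-fold higher, and *Ryr2*, the calcium release channel, at least 4.55-fold over 107 probe sets, with 0.36 at its brightest probe set. The natriuretic peptide gene *Nppa* was at least 1.29-fold higher, with -0.06 at its brightest probe set. *Atp2a2*, the calcium pump of many cell types, lay within 1.5-fold at 0.14, and the 1 lower gene was the gap junction gene *Gja1*, which stem cells also use, at 1.84-fold.

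Of 27 cardiac transcription factors compared, 17 were over 1.5-fold higher, 5 of the 27 being above background only at day 8, and 4 were lower, among them *Mesp1* and *Mesp2*. *Isl1*, a factor of the second heart field and of motor neurons, was 1.72-fold higher. *Tbx5*, of the first heart field, was at least 3.10-fold higher. *Hand2* was 3.15-fold higher and *Tbx20* 3.01-fold, from 10.88 to 12.47. *Mef2c*, a factor of heart, vessel and blood, was at least 8.09-fold higher, and *Myocd*, the coactivator of serum response factor, 3.38-fold. *Nkx2-5*, an early heart factor, had 9.11 and 9.60, a difference of 0.49 ± 0.62 (7 probe sets) that lay within 1.5-fold. *Wt1* and *Tcf21*, factors of the epicardium and other mesothelia, were 3.41-fold and at least 4.43-fold higher, although the brightest probe set of *Wt1* gave -0.12.

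Smooth muscle genes were higher in part, with 12 of 20 past 1.5-fold, 1 lower and a median of 0.68. Among the 20, 3 were above background only at day 8. *Acta2*, smooth muscle alpha-actin, which early heart muscle also makes, went from 9.86 to 13.48, a difference of 3.62 ± 0.28 (10 probe sets). *Tagln*, an actin-binding protein, was 2.21-fold higher and *Pdgfrb*, the receptor of pericytes, 6.52-fold. *Myh11*, the heavy chain of mature smooth muscle, was below background on both days, and *Srf* lay within 1.5-fold at -0.33. Of 14 skeletal muscle genes with a value, 8 were below background on both days, *Myog* among them, and none of the 6 others was past 1.5-fold on the higher side. Of those 6, 2 were above background only at day 4 and so could only be lower.

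Matrix genes gave some of the largest differences. Of 32 collagen chains compared, 18 were over 1.5-fold higher and 0 lower, with a median of 0.78 and 3 above background only at day 8. The fibrillar chains *Col1a1*, *Col1a2* and *Col3a1* led, going from 8.62 to 12.61, from 8.37 to 12.16 and from 7.46 to 11.46. Collagen VI, a microfibril of connective tissue, had all 3 chains past 1.5-fold with a median of 1.57, and collagen IV, of basement membranes, 4 of 6. *Col2a1*, the collagen of cartilage and notochord, was 1.53-fold higher, and within 1.5-fold with centred arrays at 0.46. Of 43 mesenchyme and matrix protein genes compared, 34 were over 1.5-fold higher and 0 lower, with a median of 1.24 and 3, named next, above background only at day 8. The proteoglycan genes *Lum* and *Dcn*, whose products bind collagen fibrils, went from below background to 12.69 and 13.00, at least 50.5-fold and 62.6-fold higher. *Postn*, a matrix protein of cardiac cushions and fibroblasts, went from 6.99 to 13.51, at least 89.1-fold higher. The homeobox gene *Prrx1* of limb and head mesenchyme was 4.47-fold higher and *Loxl2*, a collagen crosslinking enzyme, 6.28-fold. *Fn1*, fibronectin, was already at 13.51 at day 4 and lay within 1.5-fold.

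The knockout ES cells of the study had been derived on fibroblast feeders, and feeder-free cells had been obtained on gelatin. At day 4 of the wild type EBs, *Lum*, *Dcn* and *Postn* were below background, and *Thy1*, a surface marker of fibroblasts, had 8.62 at day 4 and 8.15 at day 8. *Col1a1*, also taken as a marker of mesenchyme and feeder fibroblasts, had 8.62 at day 4 and 12.61 at day 8. Of the 43 mesenchyme and matrix protein genes compared, 40 were above background on both days. *S100a4*, another gene used to mark fibroblasts, was below background on both days. The part of feeder cells in the matrix genes was not tested.

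Regulators of the epithelial to mesenchymal transition differed within their family. *Snai1* was lower, as given above, and *Snai2*, its relative of later mesenchyme, went from 7.26 to 11.50, 18.9-fold higher. *Twist2* was 4.98-fold higher and *Zeb1* 2.48-fold. Among the cadherins, *Cdh1* of epithelia was 1.77-fold lower and *Cdh2* of mesoderm 1.54-fold lower, while *Cdh3* and *Cdh6* were 6.06-fold and 3.56-fold higher. Of 22 Hippo pathway and target genes compared, 7 were over 1.5-fold higher and 2 lower. *Yap1*, the effector of the pathway, differed by -0.06 ± 0.15 (16 probe sets). *Stk4*, the gene of Mst1, had 10.62 and 10.16, and *Axl*, a receptor kinase gene counted among the YAP targets, was 10.1-fold higher.

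Genes of DNA replication were lower by small amounts. Of 40 compared, 21 were over 1.5-fold lower, 0 were higher and 19 lay within 1.5-fold, with a median of -0.62. The helicase subunits *Mcm2* to *Mcm7* had differences between -0.56 and -0.85, and 4 of the 6 were past 1.5-fold. *Orc1*, the largest subunit of the origin recognition complex, went from 10.55 to 9.36. Mitosis genes were less far apart, with 10 of 39 past 1.5-fold on the lower side, 1 on the higher side and a median of -0.41, and *Mki67*, the proliferation marker, had 10.37 and 10.33. With both arrays centred on their medians over all genes, these medians were -0.77 and -0.56. The cyclins parted, with *Ccnd1* 2.21-fold lower, *Ccne1* 2.13-fold lower, *Ccnd2* 2.17-fold higher and *Ccnd3* 1.89-fold higher. *Cdkn1a*, the inhibitor p21, went from 9.70 to 11.15, 2.73-fold higher. The 3 Myc genes *Myc*, *Mycn* and *Mycl* were 1.55-fold, 1.91-fold and 3.05-fold lower. Of 22 p53 targets compared, 17 lay within 1.5-fold, with 13.6% higher and 9.09% lower, not far from the shares over all genes.

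In a list of imprinted genes and genes of insulin-like growth factors, 17 of 29 compared were over 1.5-fold higher and 2 lower, with a median of 0.69. Among the 29, 3 were above background only at day 8 and 1 only at day 4. *Igf2*, the fetal growth factor, went from 11.94 to 14.08, 4.41-fold higher, and *H19*, the noncoding RNA of the same locus, was 5.98-fold higher. *Igf2r*, the receptor that clears Igf2, was 5.01-fold higher. *Plagl1*, a zinc finger gene of the imprinted network, was 24.6-fold higher, and *Dlk1*, a Notch-like ligand, 16.7-fold, while *Phlda2*, a placental gene, was 2.07-fold lower.

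Genes that every cell uses gave a measure of what did not move. Of 46 ribosomal protein genes compared, 43 lay within 1.5-fold and 3 were lower, with a median of -0.18. Of 47 oxidative phosphorylation genes, 44 lay within it, with a median of -0.07. *Gapdh* had 14.01 and 14.02. Glycolysis and hypoxia genes were higher where they passed 1.5-fold, 13 of 33 with 0 lower and a median of 0.34, such as *P4ha2*, a collagen prolyl hydroxylase, at 5.84-fold and *Egln1*, an oxygen sensor that hypoxia is known to induce, at 2.34-fold. Cholesterol synthesis genes were lower where they differed, 7 of 25, and *Idi1* was 2.13-fold lower.

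In the splicing and microRNA list 17.4% of the genes compared were higher and 4.35% lower, against 16.7% and 12.7% over all genes. In the list of Polycomb and BAF chromatin factors the shares were 19.4% and 12.9%, near those over all genes. The muscleblind genes *Mbnl1*, *Mbnl2* and *Mbnl3*, whose products switch exons from embryonic to adult forms, went from 8.62 to 11.28, from 10.11 to 11.92 and from 9.94 to 11.84. Of the 23 genes of the splicing and microRNA list, 18 lay within 1.5-fold, these 3 and *Celf2* were past 1.5-fold on the higher side, and the splicing factor *Srsf1* was 1.51-fold lower. *Srsf1* lay within 1.5-fold with quantile normalization (-0.58), with the mean over probe sets (-0.43) and at its brightest probe set (-0.23). Among BAF subunits, *Smarca2*, the ATPase of differentiated cells, was 3.23-fold higher and *Smarcd3*, the subunit of the heart, 1.91-fold, although its brightest probe set gave -0.49. *Ezh2* and *Eed*, which encode subunits of the Polycomb enzyme that methylates histones, were 1.57-fold and 1.69-fold lower, and 21 of 31 genes of the list lay within 1.5-fold. Their brightest probe sets gave -0.46 for *Ezh2* and -0.56 for *Eed*, both within 1.5-fold, and the mean over probe sets gave -0.53 for *Ezh2*.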

How the data were processed

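Total RNA of day 4 and day 8 EBs was measured on 1 Affymetrix mouse exon 1.0 ST array for each genotype and day. The authors deposited log2 signals of 229581 probe sets, and per the labels they used Affymetrix Expression Console. Its background correction and normalization settings are not given in the sources used here. Of these probe sets, 209279 were annotated with 1 gene symbol and were used, and old symbols were brought up to date through RefSeq synonyms. The gene value was the median over probe sets, and background the 95th percentile of receptor genes on each array. Calculations used Python 3.11.15, numpy 2.4.6 and pandas 2.3.3, and the gene summary was checked on simulated data. The number of arrays, 1 for each day, limits the precision, and no test was run.

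Named genes were the up to 6 largest differences past 1.5-fold in each direction of a list, the cell type markers, members whose role is described, and the 25 largest differences each way over all genes. The gene lists, their members and the subgroups were chosen with earlier results of these data known. The alternatives were another centring, quantile normalization, the mean or the brightest probe set, other background limits and a 2-fold threshold.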

Additional observations from a re-analysis of the deposited data

Results flagged for a closer look

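Among the genes named above, 10 were past 1.5-fold in opposite directions in the 2 genotypes, each genotype having 1 array for each day. The difference was not tested for any of them. Named genes were mostly picked for large differences in wild type EBs. Opposite directions were not counted over all genes compared, so 10 cannot be called many or few. The day 8 minus day 4 difference in wild type EBs was -1.59 for *Aplnr*, against 0.99 in *Mst-/-* EBs. It was -0.62 for *Cdh2*, against 0.84, and -2.83 for *Cxcr4*, against 1.06. For *Cyp26a1* it was -4.11 against 0.60, and for *Dkk1* -1.50 against 1.38. For *Lgr5* it was -1.46 against 0.89, for *Msx1* -1.41 against 1.31 and for *Sox17* -0.96 against 2.08. These 8 were lower in wild type EBs and higher in *Mst-/-* EBs. The opposite held for *Sox2*, at 0.66 against -0.59, and for *Spi1*, at a measured 2.47 against -0.79. *Spi1* was below background at day 4 in wild type EBs and at day 8 in *Mst-/-* EBs, and its brightest probe set gave -0.22 in wild type EBs. *Sox2* lay within 1.5-fold in wild type EBs with centred arrays, at 0.51.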

How the results depend on the processing

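No paired analysis was possible because each day had 1 array. Of the genes called, 1055 were at least 2-fold higher and 437 at least 2-fold lower, and centring both arrays on their median over all genes gave 2315 lower genes. When a gene was read from its brightest probe set alone, list medians moved to -0.305 (primed epiblast), -1.375 (streak), -0.505 (Nodal), 0.12 (Hox), 0.26 (hemogenic factors), 0.61 (endothelium), 0.605 (megakaryocyte), 0.66 (macrophage), 1.39 (sarcomere) and 0.29 (collagens). The Nodal median was -0.56 with means over probe sets, the megakaryocyte median 1.32 with values raised to background, and the macrophage median 2.405 with the background at the 99th percentile. The brightest probe set also turned the direction of 18 named genes that had been past 1.5-fold. Changes of sign within 1.5-fold were not counted. The 18 went to 0.01 for *Ascl2*, -0.01 for *Bmp1*, -0.14 for *Dpf3*, 0.25 for *Gad1*, -0.20 for *Hnf4a*, -0.07 for *Hoxa11*, -0.52 for *Hspa1a*, -0.06 for *Nppa*, -0.48 for *Rbl2*, 0.40 for *Sfn*, -0.49 for *Smarcd3*, -0.28 for *Smyd1*, -0.22 for *Spi1*, 0.55 for *Tbx6*, -0.03 for *Tie1*, 0.14 for *Wnt2b*, -0.12 for *Wt1* and 0.07 for *Zic5*. With it, 156 other named genes moved by more than the SD over their probe sets, and 235 did not. Calls of the text that it ended without a change of direction included those of *Mesp2* at -0.29, *Lyve1* at 0.58, *Fli1* at 0.22, *Erg* at 0.31, *Itga2b* at 0.15, *Angpt2* at 0.03, *Stab2* at 0.09, *Nr5a2* at 0.05, *Tfcp2l1* at 0.15, *Zfp42* at -0.08, *Smarca2* at 0.31 and *Mns1* at -0.09. The cause was not tested. No list median that was past 1.5-fold changed sign under these alternatives. Signal over background limits the dim genes, and no value here measures the spread between cultures.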

Other observations

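Genes of motile cilia, a group chosen after their values were seen and given no test, were mostly lower at day 8. Of 21 with a value, 7 were below background on both days, 9 of the 14 compared were over 1.5-fold lower and 1 was higher, and 7 of the 14 were above background only at day 4. The median was -0.83, and -0.41 with values below background at their bound. *Foxj1*, the forkhead factor that switches on motile cilia genes, went from 9.30 to below background, at least 4.82-fold lower. *Mns1*, which encodes a protein of the axoneme, went from 9.20 to 7.41, a difference of -1.79 ± 0.57 (SD over 11 probe sets). In *Mst-/-* EBs the median was -0.07 over 9 genes compared, and the difference was not tested.

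Among the largest differences outside the lists, *Ednrb*, which encodes an endothelin receptor, went from below background to 10.81, at least 13.7-fold higher. *S1pr3*, which encodes a receptor for sphingosine 1-phosphate, was 19.8-fold higher and above background on both days. *Alox15*, a lipoxygenase gene, was 8.28-fold lower, and *Car3*, a carbonic anhydrase gene, 8.20-fold lower.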
